A study of Rattus norvegicus with 17 samples.

Results

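The genes described here are those of skeletal muscle, the striated muscle of the lid that is taken along when the meibomian gland (MG) is dissected from the eyelid. They were chosen as a list of 48 gene names covering the fast, slow and developmental isoforms of the contractile proteins, the thin filament and Z-disc, titin and the M-band, calcium handling, energy metabolism and protein turnover of muscle. Of these, 42 were found by name among the 17251 genes of the deposited table. Myh1, Myh2, Myh8, Ttn, Tcap and Atp2a1 were not analysed here. The samples were MGs of 17 female rats, 10 to 12 weeks old, of which 9 were controls (4 Control WT and 5 Control P1.hMR) and 8 were irradiated (3 UVB WT and 5 UVB P1.hMR). P1.hMR rats carry the human NR3C2 gene for the mineralocorticoid receptor (MR) under its proximal P1 promoter on a Sprague-Dawley background, and WT rats lack it. UVB rats had their eyelids irradiated for 5 days, and control rats of both genotypes had no treatment. Each rat gave 1 column of TPM, which is a transcript's share of the sample per unit of length, so that levels of different genes can be set side by side. The study's methods give only a range of mapped reads. The depth behind each rat's values is unknown, so that the spread between rats sets the precision.

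A muscle fibre contracts when calcium released through the ryanodine receptor binds troponin on the actin thin filament and lets the myosin heavy chain pull. Fast and slow fibres use different genes for the same parts, such as Myh4 for the fast and Myh7 for the slow heavy chain, and developing or regenerating fibres use further ones such as Myh3. The orbicularis oculi, which closes the lid in a blink, is known as a muscle made mainly of fast fibres.

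The labels were checked first. The transgene NR3C2 had 0 TPM in each of the 7 WT rats, and each of the 10 P1.hMR rats had 5.31 to 9.31 TPM. Meibocyte markers were high in every rat, with Scd between 23994 and 31198 TPM and Awat2, a wax ester synthase, between 6495 and 12062 TPM. Keratinocyte markers such as Krt5 (2538 to 3933 TPM) and the conjunctival Krt13 (2999 to 5302 TPM) were high too. The 42 muscle genes together came to between 2672 and 5941 TPM, or 0.324% to 0.714% of the listed TPM. Of 8 cardiac markers, the heart-specific Myl7 was listed at 0 in 15 rats, Tnni3 at 0 in 16 rats, and Myh6 at 0.07 TPM or less. Tnnt2 (1.83 to 13.6 TPM) and Nppb (0 to 11.4 TPM) reached higher levels and are described below.

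Fast isoforms of the heavy chain, light chains and troponins stood at 151 TPM or more in every rat, and their slow counterparts near or under 10 TPM. Myh4, the fast IIb heavy chain, lay between 203 and 460 TPM over the 17 rats, whereas Myh7, the slow heavy chain, lay between 0.02 and 1.24 TPM and Myh3, the embryonic heavy chain, between 0.14 and 0.72 TPM. Myh4 made up at least 99.4% of the TPM of these 3 chains in every rat. The heavy chains form a family of similar genes, 3 of them not analysed here, and reads shared among them may have been divided by the quantification, so the level of Myh4 is uncertain to that extent.

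The troponins, which carry the calcium switch of the thin filament, had the same order in all 17 rats. Tnnt3, Tnni2 and Tnnc2, the fast forms, had ranges of 205 to 531, 151 to 377 and 204 to 564 TPM. Tnnt1, Tnni1 and Tnnc1, the slow forms, had ranges of 2.08 to 5.70, 0.39 to 2.54 and 0.68 to 3.21 TPM. The fast forms made up between 98.5% and 99.6% of the summed troponin TPM. Among the light chains of myosin, fast Mylpf (286 to 633 TPM) and Myl1 (233 to 475 TPM) stood above slow Myl2 (0.62 to 10.8 TPM) and Myl3 (0.8 to 5.17 TPM). Myosin-binding protein C did not follow this order. Mybpc1, listed here as the slow form (30.0 to 55.6 TPM), was above the fast form Mybpc2 (6.27 to 45.0 TPM) in all 17 rats. Which fibres made the Mybpc1 RNA was not tested. Acta1, skeletal actin, was the highest member with 530 to 976 TPM.

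**Figure D1:**
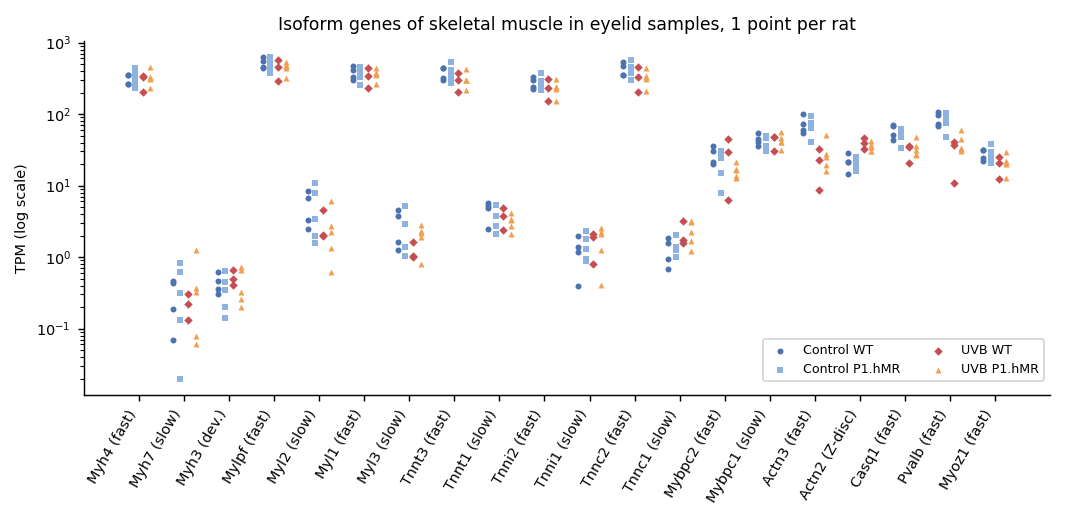
Level of the fast, slow and developmental isoform genes in each rat, with Actn2 as the partner of Actn3. The vertical axis is TPM on a log scale and each point is 1 rat, marked by group. Fast forms of the heavy chain, light chains and troponins lie at 151 TPM or more and their slow forms near or under 10 TPM, while Actn3 and Pvalb sit lower in both UVB groups.

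The promoter of Myh4 is shown since this gene is the main heavy chain among those listed, and those of Actn3 and Actn2 since this pair moved in opposite directions after UVB, the latter 2 chosen after their values were seen. The sequences are the 250 bases before the gene start, 5′ to 3′ on the gene's strand, from RefSeq on build GRCr8, which is not the build of the deposited values. Myh4 lies at chr10:52421898-52422147 on the plus strand, Actn3 at chr1:211604402-211604651 on the minus strand, and Actn2 at chr17:62834805-62835054 on the plus strand. Capitals mark letters that match an E-box (CANNTG, the site type of MyoD-family factors), TATAAA, the MEF2 motif or the CArG box on either strand.
Myh4: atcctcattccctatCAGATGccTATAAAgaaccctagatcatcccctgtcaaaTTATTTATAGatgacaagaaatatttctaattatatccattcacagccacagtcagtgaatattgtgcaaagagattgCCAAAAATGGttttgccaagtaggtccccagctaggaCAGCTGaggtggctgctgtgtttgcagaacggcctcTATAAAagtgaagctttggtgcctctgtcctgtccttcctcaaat
Actn3: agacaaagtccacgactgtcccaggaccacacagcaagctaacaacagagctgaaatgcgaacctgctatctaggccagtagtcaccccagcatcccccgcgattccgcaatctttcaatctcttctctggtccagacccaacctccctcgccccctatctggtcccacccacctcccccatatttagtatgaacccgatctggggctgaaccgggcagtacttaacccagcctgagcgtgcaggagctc
Actn2: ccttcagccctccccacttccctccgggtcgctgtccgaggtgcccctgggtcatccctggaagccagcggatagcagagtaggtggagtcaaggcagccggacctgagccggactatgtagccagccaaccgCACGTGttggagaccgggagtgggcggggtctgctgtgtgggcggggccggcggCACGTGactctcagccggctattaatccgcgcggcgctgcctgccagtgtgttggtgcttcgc
The Myh4 window held E-boxes at positions -235 to -230 and -81 to -76 from the start, TATAAA at -227 to -222, at -45 to -40 and, on the other strand, at -193 to -188, a MEF2 match at -196 to -187 that overlaps this last one, and a CArG box at -118 to -109. The Actn2 window held 2 E-boxes, both with the letters CACGTG, and the Actn3 window held none of these motifs. Of the 42 listed members, 34 had a promoter in the reference table. An E-box was found in 30 of the 34, against 65.5% of all 33469 promoters of the same length, TATAAA in 10 of 34 against 12.9%, MEF2 in 6 of 34 against 2.96% and the CArG box in 4 of 34 against 1.5%.

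The amount of muscle RNA varied from rat to rat within every group. The summed level of the 42 genes was 3959, 5605, 5201 and 3894 TPM in Control WT rats and 4885, 4874, 4039.6, 5941 and 3355 TPM in Control P1.hMR rats. It was 4903, 4150.4 and 2672 TPM in UVB WT rats and 4050.3, 4039, 5210.3, 2879.8 and 4128 TPM in UVB P1.hMR rats. The 4 groups overlapped, and UVB WT rat 3 was the lowest of all. In bulk tissue, fewer muscle cells and less RNA per muscle cell cannot be told apart. On the log2(TPM + 1) scale, the SD between rats of a group had a median of 0.33 over the 32 members with a mean of at least 5 TPM, against 0.11 over all 9935 genes at that level.

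Most members moved together between rats. Taking each rat's deviation from its group mean and Ckm, the muscle creatine kinase, as the reference, Pearson's r over the 17 rats had a median of 0.85 among the other 39 tested members and Spearman's rho a median of 0.83. For the 13065 tested genes outside the list, the median r was 0.006. Without the 2 rats farthest from the median of Ckm, UVB WT rat 3 and UVB P1.hMR rat 4, the members' median r was 0.82. The closest members were Ryr1, the ryanodine receptor (r = 0.99), Myh4 (0.98) and Tnni2 (0.98). The slow troponins Tnnc1 (0.41), Tnni1 (0.30) and Tnnt1 (0.17), the ubiquitin ligase Fbxo32 (0.14) and Lmod2 (-0.045), an actin filament nucleator, did not follow Ckm. These slow troponins were at 5.70 TPM or less in every rat, which limits what their r can show. Of the other tested genes listed as slow-fibre, Myl2 and Myl3 had an r of 0.56 each. Mybpc1, at 30.0 to 55.6 TPM, had 0.91. Genes outside the list with an r between 0.95 and 0.98 included AABR07005775.1, Cmya5, Pde4dip, Rtn2, Scn4a, Sh3bgr, Jsrp1 and Usp13. All these points share their libraries, so the values describe the libraries and carry no test.

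After UVB in WT rats, 3 of the 11 fast-fibre genes tested were lower and 2 of the 10 thin filament and Z-disc genes higher, and the other members did not pass the test. Of the 40 members that reached 1 TPM in 3 or more rats, 2 rose (Actn2, Des) and 3 fell (Actn3, Pvalb, Casq1) at an adjusted p under 0.05 and a log2 fold change of at least 0.5 in size (limma on log2(TPM + 1), Benjamini-Hochberg over 13105 genes). These 5 are 12.5% of the members tested, while 7.91% of all genes tested were called, 3.92% as higher and 3.98% as lower. The members were chosen with earlier results of these data known, so such shares cannot show an excess in either genotype. The median log2 fold change of the members was -0.24, against 0.0054 over all genes. The groups did not overlap in 6 of the 40 members, a smaller share than the 26.6% found over all genes. Myh3 and Myh7 were too low to be tested.

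UVB in P1.hMR rats was followed by 3 rises (Actn2, Myot, Trim63) and 5 falls (Actn3, Pvalb, Casq1, Mb, Ldb3). These 8 are 20% of the 40 members, while 10.8% of all genes tested were called, 5.05% as higher and 5.71% as lower. The median log2 fold change was -0.22 against -0.016 over all genes. The groups did not overlap in 2 members, Actn2 and Trim63, whereas 27.2% of all genes did not overlap. Actn2, Actn3, Pvalb and Casq1 were called in both genotypes. The UVB comparisons use different rats in each genotype.

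**Figure D2:**
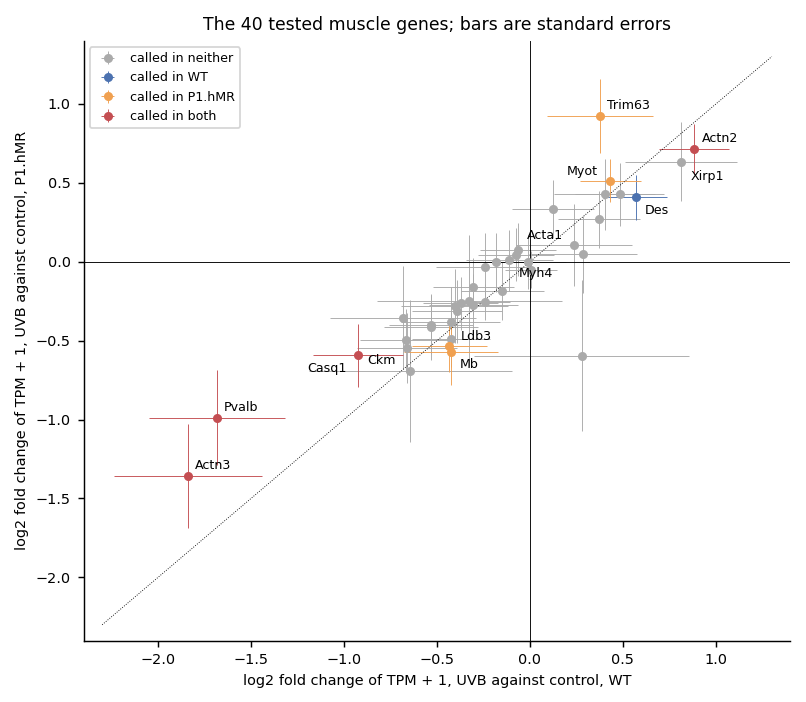
Log2 fold change of TPM + 1 after UVB in WT rats (horizontal) and in P1.hMR rats (vertical) for the 40 tested members, with standard errors as bars and the line of equal change dotted. Actn3, Pvalb and Casq1 lie at the lower left and Actn2 at the upper right, while Acta1 and Myh4 lie near 0 in both genotypes.

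Actn3, the alpha-actinin of the Z-disc in fast fibres, had the largest fall in both genotypes. It was at 59.0, 72.4, 101 and 55.2 TPM in Control WT rats and at 32.5, 22.8 and 8.72 TPM in UVB WT rats. The groups did not overlap, with a log2 fold change of -1.84 (SE 0.40, adjusted p = 0.00441). In P1.hMR rats it was at 75.3, 64.3, 73.8, 93.8 and 41.2 TPM without UVB and at 19.3, 25.0, 51.4, 16.1 and 27.6 TPM with UVB. Here 1 irradiated rat lay above the lowest control, and the log2 fold change was -1.36 (SE 0.33, adjusted p = 0.00403).

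Actn2, the alpha-actinin found in all striated fibres, rose in both genotypes. It was at 21.4, 28.8, 21.1 and 14.6 TPM in Control WT rats and at 46.8, 39.7 and 32.9 TPM in UVB WT rats (log2 fold change 0.88, SE 0.19, adjusted p = 0.0042). In P1.hMR rats it was at 21.7, 25.3, 18.3, 23.7 and 16.0 TPM without UVB and at 34.97, 30.0, 41.6, 30.6 and 37.4 TPM with UVB (0.71, SE 0.16, adjusted p = 0.00195). Every irradiated rat was above every control of its genotype. The calls of Actn2 and Actn3 held under every alternative at this threshold, with each rat left out in turn included.

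The actinin pair had opposite orders in control and irradiated rats, with UVB P1.hMR rat 3 as the exception. The log2 ratio of Actn3 to Actn2, each with 1 TPM added, was between 1.3 and 2.21 in all 9 control rats and between -1.80 and 0.30 in all 8 irradiated rats. The difference between the means was -2.72 in WT rats (exact permutation test, two-sided, p = 0.0571, the smallest that 3 against 4 rats can give) and -2.07 in P1.hMR rats (exact permutation p = 0.00794, the smallest for 5 against 5). Adjusted over the 32 tests of 8 pairs in 4 comparisons, these were 0.457 and 0.254, so no pair passed. The other pairs set a fast against a slow form. Actn2 is listed here with the thin filament and Z-disc genes, so its pair does not. The pair Tnnc2 and Tnnc1 came next, with differences of -0.91 in WT (exact permutation p = 0.0571, adjusted 0.457) and -0.81 in P1.hMR rats (p = 0.0238, adjusted 0.381). For Myh4 to Myh7 the differences were -0.036 in WT (exact permutation p = 0.971) and -0.0064 in P1.hMR rats (p = 0.984), with Myh7 near 0.

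Pvalb, parvalbumin, buffers calcium in fast fibres and speeds relaxation. Its levels were 72.5, 96.3, 107 and 68.3 TPM in Control WT rats and 37.2, 40.9 and 10.8 TPM in UVB WT rats, with no overlap (log2 fold change -1.68, SE 0.36, adjusted p = 0.00441). In P1.hMR rats they were 89.6, 73.9, 84.1, 104 and 47.6 TPM without UVB and 33.3, 44.2, 59.0, 32.1 and 30.1 TPM with UVB, and 1 irradiated rat lay above the lowest control (-0.99, SE 0.30, adjusted p = 0.016). The difference between the genotypes in this response, 0.69 (SE 0.47), was not called (interaction, adjusted p = 0.812).

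Casq1, the calsequestrin that stores calcium in the sarcoplasmic reticulum of fast fibres, also fell. It was at 51.1, 70.7, 67.1 and 42.9 TPM in Control WT rats and at 35.7, 34.6 and 20.5 TPM in UVB WT rats with no overlap (log2 fold change -0.93, SE 0.24, adjusted p = 0.0127). For P1.hMR rats the levels were 60.9, 48.6, 56.1, 58.6 and 33.3 TPM without UVB and 31.5, 36.1, 47.1, 27.98 and 26.4 TPM with UVB, and the groups overlapped (-0.59, SE 0.20, adjusted p = 0.0271). The call in WT was lost without UVB WT rat 3 (adjusted p = 0.0727). The call in P1.hMR was lost without Control P1.hMR rat 1, 3 or 4 or UVB P1.hMR rat 1, 4 or 5 (adjusted p between 0.0518 and 0.0706).

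Of the other fast-fibre genes, none passed in either genotype, and all 11 had a log2 fold change under 0 in WT rats. Myh4 was at 262, 358, 352 and 265 TPM in Control WT rats and at 344, 326 and 203 TPM in UVB WT rats. In P1.hMR rats it was at 332, 360, 278, 435 and 234 TPM without UVB and at 312, 325, 460, 229 and 325 TPM with UVB. The groups overlapped in both genotypes, with log2 fold changes of -0.11 (SE 0.23, adjusted p = 0.775) and 0.0078 (SE 0.19, adjusted p = 0.98). None of the 6 tested genes listed as slow-fibre, Mybpc1 among them, was called. Their largest values were -0.68 for Myl3 in WT and -0.69 for Myl2 in P1.hMR rats, both of which are low genes.

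Among the thin filament and Z-disc genes, Des, the desmin intermediate filament that ties Z-discs together, rose in WT rats. Control WT rats had 149, 178, 140 and 135 TPM of it and UVB WT rats 254, 239 and 181 TPM, with no overlap (log2 fold change 0.57, SE 0.17, adjusted p = 0.0251). The call was lost without Control WT rat 3 or 4 or UVB WT rat 1 or 2 (adjusted p between 0.06 and 0.0997). In P1.hMR rats the values were 147, 144, 117, 196 and 125 TPM without UVB and 200, 170, 209, 153 and 233 TPM with UVB, an overlap, with a log2 fold change of 0.41 that missed the fold threshold (SE 0.14, adjusted p = 0.0298). Without Control P1.hMR rat 4 it passed (0.52, adjusted p = 0.00549). Des is also made by smooth muscle. Of 8 smooth muscle markers, 1 rose in WT rats (Actg2, 0.53) and 1 fell in P1.hMR rats (Myh11, -0.75), and their summed level was 841 to 1086 TPM in Control WT, 997 to 1028 TPM in UVB WT, 718 to 1039 TPM in Control P1.hMR and 703 to 813 TPM in UVB P1.hMR rats. The part of smooth muscle in the Des values was not tested.

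Myot, myotilin, binds alpha-actinin at the Z-disc. Its levels were 15.7, 13.97, 11.7, 16.0 and 10.0 TPM in Control P1.hMR rats and 19.8, 22.6, 21.3, 15.7 and 18.2 TPM in UVB P1.hMR rats, where the lowest irradiated rat lay within the control range (log2 fold change 0.51, SE 0.14, adjusted p = 0.00728). It fell under the fold threshold without Control P1.hMR rat 3 or 5 or UVB P1.hMR rat 2 or 3 (0.42 to 0.48). In WT rats the log2 fold change was 0.43 (SE 0.17, adjusted p = 0.073), which passed without Control WT rat 2 (0.54, adjusted p = 0.0379). Ldb3, the Z-disc scaffold also known as ZASP, went the other way, from 31.5, 30.8, 29.6, 42.2 and 26.7 TPM to 22.5, 25.4, 27.4, 16.2 and 18.8 TPM in P1.hMR rats (-0.53, SE 0.17, adjusted p = 0.0182). The groups overlapped by 1 rat, and the call was lost without Control P1.hMR rat 4 or UVB P1.hMR rat 4 or 5 (-0.48 to -0.43). In WT rats the value for Ldb3 was -0.43 (SE 0.20, adjusted p = 0.133).

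The remaining thin filament and Z-disc genes were not called. Acta1 was at 689.8, 912, 823 and 648.5 TPM in Control WT rats and at 864, 842 and 530 TPM in UVB WT rats, and the groups overlapped. In P1.hMR rats Acta1 was at 791, 844, 649, 957 and 585 TPM without UVB and at 819, 763, 976, 581 and 892 TPM with UVB. Neb, nebulin, which runs along the thin filament, was between 8.65 and 17 TPM over all rats, and Xirp2, a relative of Xirp1, between 4.44 and 7.41 TPM. Xirp1, an actin-binding repeat protein of muscle attachment sites, averaged 2.56 TPM in Control WT and 4.91 TPM in UVB WT rats (log2 fold change 0.81, SE 0.30, adjusted p = 0.0639). Among P1.hMR rats it averaged 2.17 TPM and 4.09 TPM (0.63, SE 0.25, adjusted p = 0.0534). Without Control WT rat 2, Xirp1 passed in WT (adjusted p = 0.0123) and, through the shared estimate of spread, in P1.hMR rats (adjusted p = 0.0239), where it also passed without Control P1.hMR rat 2 or UVB P1.hMR rat 1 or 4 (adjusted p between 0.0272 and 0.0448).

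Trim63, also known as MuRF1, is the muscle ubiquitin ligase that marks sarcomere proteins for breakdown, and it rose in P1.hMR rats. It was at 6.63, 6.71, 3.95, 7.67 and 4.58 TPM in Control P1.hMR rats and at 9.19, 10.3, 22.4, 8.91 and 11.9 TPM in UVB P1.hMR rats, with no overlap (log2 fold change 0.92, SE 0.24, adjusted p = 0.00554). UVB P1.hMR rat 3 stood apart from the other 4, and without it the call held. In WT rats it was at 6.30, 9.73, 3.86 and 6.01 TPM without UVB and at 9.71, 7.55 and 7.83 TPM with UVB, and the groups overlapped (0.37, SE 0.29, adjusted p = 0.371). The response was not shown to differ between the genotypes, since the difference of 0.55 (SE 0.37) was not called (interaction, adjusted p = 0.807). Fbxo32, or atrogin-1, the other ligase known from muscle wasting, was at 19.7 to 35.8 TPM over all rats and was not called in either genotype (log2 fold change -0.24 and -0.26, adjusted p = 0.223 and 0.0866).

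**Figure D3:**
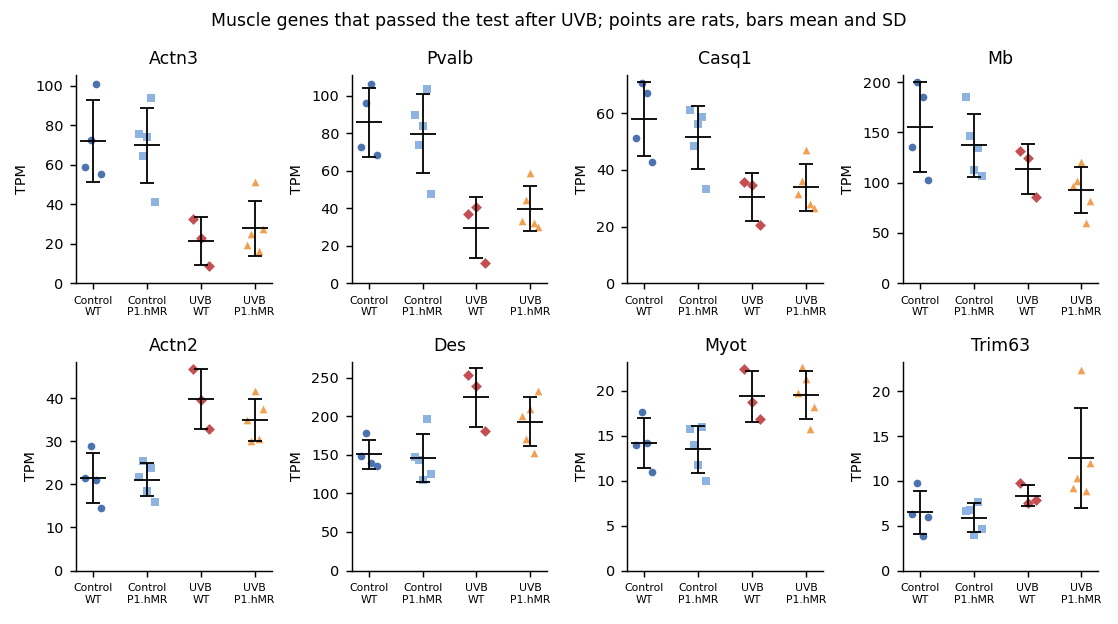
TPM of 8 of the 9 members called after UVB in at least 1 genotype, by group. Points are rats, the horizontal bar is the mean and the error bar the SD, and each axis starts at 0. Actn3, Pvalb, Casq1 and Mb lie lower in the UVB groups and Actn2, Des, Myot and Trim63 higher, and 1 UVB P1.hMR rat stands far above the others for Trim63.

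The 4 genes of energy metabolism had log2 fold changes under 0 in both genotypes. Mb, myoglobin, which stores oxygen, was at 185, 147, 135, 113 and 107 TPM in Control P1.hMR rats, from high to low, and at 121, 102, 97.2, 82.1 and 60.1 TPM in UVB P1.hMR rats. The groups overlapped by 1 rat, and the log2 fold change was -0.57 (SE 0.21, adjusted p = 0.039). The call for Mb was lost without Control P1.hMR rat 1, 2 or 4 or UVB P1.hMR rat 1, 4 or 5 (adjusted p between 0.0517 and 0.108). In WT rats the value for Mb was -0.42 (SE 0.25, adjusted p = 0.245). Ckm, which regenerates ATP from phosphocreatine, averaged 490 TPM in Control WT and 319 TPM in UVB WT rats (-0.66, SE 0.27, adjusted p = 0.0884) and 488 and 335 TPM in P1.hMR rats (-0.55, SE 0.22, adjusted p = 0.0614). Eno3, the muscle enolase of glycolysis, averaged 179 and 115 TPM in WT (-0.67, adjusted p = 0.0589) and 176 and 124 TPM in P1.hMR rats (-0.50, adjusted p = 0.0599). Both genes crossed the threshold when single rats were left out, Ckm without UVB WT rat 1 in WT (adjusted p = 0.0444) and without Control P1.hMR rat 5, UVB WT rat 3 or UVB P1.hMR rat 3 in P1.hMR rats (0.0315 to 0.0335). Eno3 crossed it without Control WT rat 1, Control P1.hMR rat 5 or UVB WT rat 1 in WT (0.0195 to 0.0473) and without Control P1.hMR rat 5 or UVB P1.hMR rat 3 in P1.hMR rats (0.0247 and 0.033).

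Since the summed muscle level differed between rats of each group, the metabolic genes were also read per unit of fast myosin, a step chosen after the values were seen. The ratio of Ckm to Myh4 was 1.49, 1.62, 1.65 and 1.54 in the Control WT rats and 1.505, 1.48, 1.49, 1.49 and 1.48 in the Control P1.hMR rats. It was 1.21, 1.07 and 0.952 in the UVB WT rats and 1.00, 1.05, 0.988, 0.966 and 1.07 in the UVB P1.hMR rats. All 8 irradiated rats were below all 9 control rats, and the 5 Control P1.hMR rats lay within 1.48 to 1.505. With Myh4 as a covariate in the model, the log2 fold change of Ckm was -0.54 (SE 0.057, adjusted p = 4.3e-05) in WT and -0.55 (SE 0.047, adjusted p = 1.3e-06) in P1.hMR rats. The same holds for Eno3, with a ratio of 0.515 to 0.617 in the control rats and 0.332 to 0.458 in the irradiated rats. The other metabolic members did not separate in this way. Mb to Myh4 overlapped in both genotypes, at 0.388 to 0.559 in Control WT, 0.382 to 0.421 in UVB WT, 0.309 to 0.557 in Control P1.hMR and 0.253 to 0.314 in UVB P1.hMR rats. Pygm, the muscle glycogen phosphorylase, had ratios of 0.294 to 0.343 in the control and 0.2305 to 0.308 in the irradiated rats, which overlapped through UVB WT rat 1. With Myh4 as a covariate, Pygm was called in neither genotype and Mb in P1.hMR rats only. Acta1 to Myh4 did not separate, at 2.20 to 2.64 in the control and 2.12 to 2.75 in the irradiated rats.

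With Myh4 as the covariate, which left 39 members to test, 3 members rose and 5 fell in WT rats, where 7.94% of all genes were called, and 4 rose and 7 fell in P1.hMR rats, where 10.8% were called. The members added were Ckm, Eno3 and Xirp1 in both genotypes. The choice of the reference gene matters for the size of each list. With Acta1 as the covariate the counts were 3 and 5 in WT and 3 and 9 in P1.hMR rats, with 8.04% and 11% of all genes called. With Tnnt3, itself lower relative to Myh4 in every irradiated rat (0.912 to 1.09, against 1.15 to 1.26 in controls), they were 5 and 3 in WT and 7 and 2 in P1.hMR rats, with 7.7% and 10.2% of all genes called. Neither Ckm nor Eno3 was then called. Actn2 and Xirp1 rose and Actn3 and Pvalb fell in both genotypes with each of the 3 covariates.

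**Figure D4:**
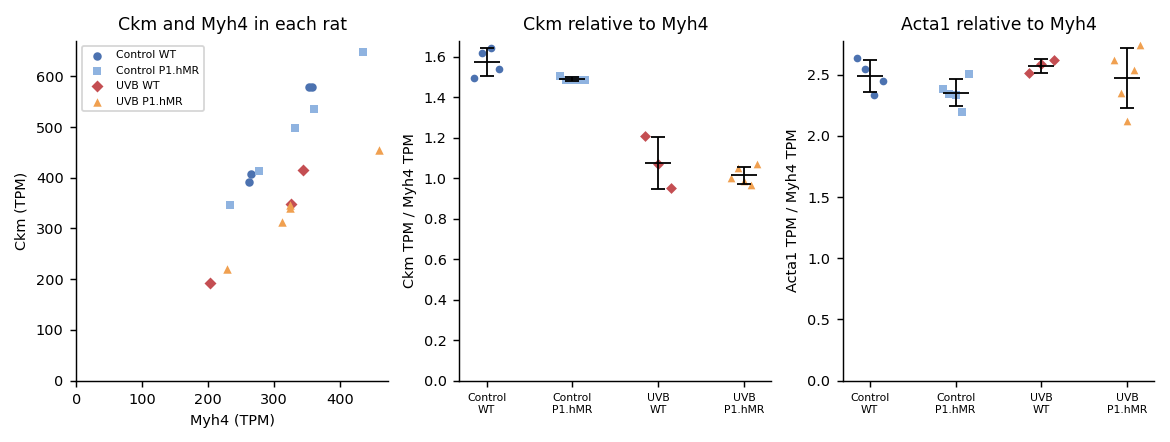
Left, Ckm against Myh4 in TPM, 1 point per rat. Middle and right, the ratio of Ckm and of Acta1 to Myh4 by group, with the mean and SD. Control rats lie on a steeper line than irradiated rats, with Ckm at 1.48 to 1.65 times Myh4 in controls and at 0.952 to 1.21 times after UVB, while the Acta1 ratios overlap.

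The 4 genes of calcium release and handling other than Casq1 and Pvalb, namely Ryr1, Cacna1s, Trdn and Sln, and the M-band genes Myom1 and Myom2 were not called in either genotype. Ryr1 was at 6.86 to 15.7 TPM over all rats, and its log2 fold changes were -0.15 (SE 0.22) in WT and -0.19 (SE 0.18) in P1.hMR rats. Sln, sarcolipin, which inhibits the calcium pump, was listed at 0 in 4 rats and did not exceed 4.98 TPM. Myom2 reached an adjusted p of 0.0337 in P1.hMR rats with a log2 fold change of -0.49, under the fold threshold of 0.5.

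The comparison of genotypes gave no call among the 40 members. No member was called for P1.hMR against WT with UVB, where 0.0229% of all genes were called, nor without UVB, where 0.00763% were called. At an unadjusted p under 0.05 the counts were also 0 in both, against 10.3% of all genes with UVB and 4.03% without, and the smallest adjusted p (limma) was 0.593 with UVB and 0.998 without. The largest differences with UVB were 0.57 for Pvalb (SE 0.35) and -0.36 for Mybpc2 (SE 0.48), and without UVB 0.68 for Sln (SE 0.51) and -0.44 for Mybpc2 (SE 0.44). The response to UVB was not called different between genotypes for any member (0 of 40, and 0% of all genes), with 0 at an unadjusted p under 0.05 (6.92% of all genes) and a smallest adjusted p of 0.807. These standard errors leave room for differences of the size of the fold threshold.

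Other genes of muscle were read from 5 lists written for this tissue, and their changes after UVB included larger ones than among the members. These lists, like those of other cells below, were chosen with earlier results of these data known. Their called shares therefore cannot show an excess over all genes. Of 42 tested genes of the sarcomere and its calcium supply, 6 rose and 1 fell in WT rats, which is 16.7% of them against 7.91% of all genes tested. In P1.hMR rats 6 rose and 2 fell, which is 19.0% against 10.8%. Csrp3, the muscle LIM protein of the Z-disc, had the largest rise of this list in WT, from 22.9, 30.2, 17.95 and 15.4 TPM in Control WT rats to 107, 94.5 and 57.0 TPM in UVB WT rats (log2 fold change 1.94, SE 0.26, adjusted p = 0.000204). Its levels in P1.hMR rats went from 25.9, 20.3, 14.1, 23.0 and 16.4 TPM to 59.8, 55.4, 71.7, 66.5 and 107 TPM (1.79, SE 0.22, adjusted p = 1.6e-05). No irradiated rat overlapped the controls. Ankrd1 (1.34 and 1.94) and Ankrd2 (1.71 and 1.34), stretch-responsive ankyrin repeat proteins, rose in WT and P1.hMR rats. So did Cryab (0.83 and 0.68) and Hspb7 (0.94 and 0.92), small heat shock proteins that guard the sarcomere, and Fhl1 (0.61 and 0.59). Myh14, a non-muscle heavy chain that epithelium also expresses, fell (-0.61 and -0.77), and Lmod3 fell in P1.hMR rats (-0.73). Cryab, Fhl1 and Ankrd1 are made by other cells too, and the part of those cells was not tested.

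Of 16 tested genes of muscle metabolism, 2 fell in WT rats (Ampd1, AMP deaminase, -0.91, and Pgam2, the muscle phosphoglycerate mutase, -0.69). In P1.hMR rats 4 fell, namely Ampd1 (-0.68), Pgam2 (-0.57), Phkg1 (-0.55) and Adssl1 (-0.53), and none rose in either genotype. The called shares were 12.5% in WT and 25% in P1.hMR rats, where 3.98% and 5.71% of all genes were called lower. Median log2 fold changes of this list were -0.18 and -0.13. Of 10 genes of muscle mass and protein turnover, 2 fell in WT and 3 in P1.hMR rats, or 20% and 30%, read against the same shares of all genes. Igfn1, an immunoglobulin-domain protein of the Z-disc, went from 4.40, 5.16, 2.73 and 3.78 TPM to 1.34, 0.64 and 0.49 TPM in WT (-1.46, SE 0.25, adjusted p = 0.000904) and fell by 1.52 on the log2 scale in P1.hMR rats (SE 0.20, adjusted p = 3.77e-05). Mstn, myostatin, the brake on muscle growth, fell in both (-0.77 and -0.75), and Ky fell in P1.hMR rats (-0.92).

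Of 12 myogenic and satellite cell genes only 5 were high enough to test. The called shares of these were 20% in WT and 40% in P1.hMR rats, where 7.91% and 10.8% of all genes were called. Myog, myogenin, which drives the differentiation of myoblasts, was at 0.41, 0.44, 0.64 and 0.29 TPM in Control WT rats and at 1.4, 2.64 and 1.56 TPM in UVB WT rats (log2 fold change 0.97, SE 0.20, adjusted p = 0.00364). In P1.hMR rats it was at 0.54, 0.54, 0.29, 0.78 and 0.69 TPM without and at 2.14, 3.52, 4.66, 1.89 and 3.05 TPM with UVB (1.33, SE 0.17, adjusted p = 2.13e-05). No rats overlapped, though the levels are low and the scale understates their change. Myf6 rose in P1.hMR rats (0.83, adjusted p = 0.0011) and was at 0.57 in WT (adjusted p = 0.0552). At the neuromuscular junction, with 7 genes tested, Chrna1, the muscle acetylcholine receptor alpha subunit, rose in WT (0.72, adjusted p = 0.00864) and P1.hMR rats (0.50, adjusted p = 0.0117). Lrp4, the agrin receptor, and Rapsn, rapsyn, which clusters the receptor, fell in P1.hMR rats (-0.60 and -0.50), and for neither was the difference between genotypes called (interaction, adjusted p = 0.88 and 0.711). In WT rats neither was called. There Lrp4 went from 10.04, 9.66, 7.79 and 8.88 TPM to 7.66, 6.26 and 5.39 TPM with no overlap, while Rapsn overlapped. Which cells made the Lrp4 and Rapsn RNA was not tested. The called shares of the junction genes were 14.3% in WT and 42.9% in P1.hMR rats, read against the same shares of all genes.

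**Figure D5:**
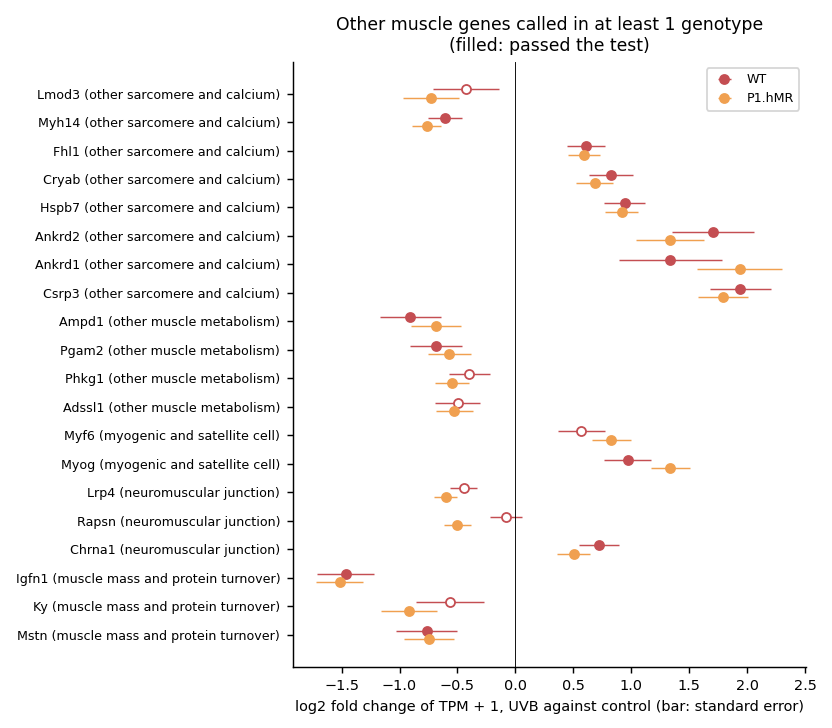
Log2 fold change of TPM + 1 after UVB, with standard error, for the genes of the 5 muscle lists that passed in at least 1 genotype, with filled symbols where they passed. Csrp3, Ankrd1, Ankrd2, Hspb7, Cryab, Fhl1, Myog and Chrna1 lie above 0 in both genotypes, and Igfn1, Mstn, Ampd1, Pgam2 and Myh14 below 0 in both.

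Markers of other cells moved with UVB beside these genes, read against 3.92% of all genes called higher and 3.98% lower in WT rats. In P1.hMR rats these shares were 5.05% and 5.71%. Of 6 markers of Schwann cells and nerve, 3 fell in WT and 2 in P1.hMR rats, among them Ncmap, a protein of noncompact peripheral myelin (-0.83 and -0.75), and their summed level was 98.7 to 111 TPM in Control WT, 70.5 to 79.5 TPM in UVB WT, 88.5 to 139 TPM in Control P1.hMR and 68.7 to 78.9 TPM in UVB P1.hMR rats. Their part in the values of the junction genes was not tested. Of 8 cardiac markers 2 were high enough to test, and both rose in both genotypes, namely Nppb, the natriuretic peptide B gene (2.56 and 2.25), and Tnnt2, the cardiac troponin T that developing skeletal muscle also makes (0.85 and 1.32). The sum of the 8 was 2.28 to 4.42 TPM in the control rats and 8.88 to 23.0 TPM in the irradiated rats, with the heart-specific Myl7, Tnni3 and Mybpc3 at 0.12 TPM or less in every rat. Of 9 meibocyte markers 1 rose (Elovl3) and 1 fell (Awat2) in each genotype. None of the 7 keratinocyte or the 2 conjunctival markers tested was called, and of the 4 adipocyte markers tested Cidec fell in WT (-1.03) and Retn rose in P1.hMR rats (2.29).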

How the data were processed

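RNA of meibomian glands dissected from the eyelids of 17 rats was sequenced in bulk, with 1 deposited column per rat. By the study's methods the authors checked reads with FastQC, aligned them to the rn7 genome with STAR and quantified genes with RSEM, while the submitters' processing notes name FastQC, Trimmomatic, DRAGEN and Picard. The table the authors deposited holds TPM per gene, written to 2 decimals, for 17251 genes, and depth cannot be read from it. Its decimal commas were read as points. The values were taken as log2(TPM + 1), which understates the change of low genes, and the test covered the 13105 genes that reached 1 TPM in 3 or more rats. A mean per group was fitted to all 17 rats with limma 3.58.1 in R 4.3.3 with a trended prior, and a call needed an adjusted p (Benjamini-Hochberg) below 0.05 together with a log2 fold change of at least 0.5 in size. Log2 ratios of 8 pairs, fast to slow forms except for Actn3 to Actn2, were compared by two-sided exact permutation tests, adjusted over 32 tests. On simulated data with 13105 genes, some genes were changed by a log2 fold change of 1. For UVB, limma recovered 98% of them in WT rats and 96% in P1.hMR rats. The changed genes were drawn from all tested genes above a low level, not from the members. Among genes with a mean of at least 5 TPM, members varied more between rats (median SD 0.33 against 0.11). These shares therefore do not describe the members. Promoter sequences came from RefSeq. The members and all gene lists were chosen with earlier results of these data known. All listed members were counted, and those named in full are the called members, the main isoforms and the largest changes. Alternatives were other pseudocounts, filters, scalings, thresholds and models, and leaving out each rat. Some genes that met these rules are not reported here.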

Additional observations from a re-analysis of the deposited data

Results flagged for a closer look

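Xirp1 in Control WT rat 2 was at 4.94 TPM, while the other 3 Control WT rats were between 1.59 and 2.12 TPM. Trim63 in UVB P1.hMR rat 3 was at 22.35 TPM, while the other 4 UVB P1.hMR rats were between 8.91 and 11.94 TPM. Each sample stood farther from the rest of its group than Dixon's limit allows. These were 2 of the 120 groups of member values looked at (1.67%), and chance alone flags about 1 in 20.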

How the results depend on the processing

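Leaving out a rat outside the groups compared cannot change a log2 fold change, only its adjusted p, so part of the following count was fixed in direction. Over 26 results on single members and 776 alternatives, 700 kept their direction and side of the threshold. Another 30 lost and 41 gained a call, and 5 changed sign, all of these for Acta1. Its log2 fold change after UVB in WT rats was 0.027 with Myh4 and 0.24 with Tnnt3 as a covariate, 0.023 without Control WT rat 2 and 0.16 without UVB WT rat 3, and in P1.hMR rats it was -0.015 without Control P1.hMR rat 5. Without single rats it ranged from -0.19 to 0.16 in WT and from -0.015 to 0.19 in P1.hMR rats. A fold threshold of 1, stricter by construction, left 2 members called in WT rats and 1 in P1.hMR rats. With Myh4, Tnnt3 or Acta1 as a covariate, all chosen after seeing the data, 8 members were called in WT rats, and the cause was not tested. Leaving out each rat gave 4 to 7 calls in WT and 5 to 11 in P1.hMR rats, with 5 without UVB P1.hMR rat 5 and 11 without Control P1.hMR rat 5 or UVB P1.hMR rat 3. The genotype comparisons and the interaction gave 0 in each of these fits. For the pairs, 0 calls say nothing of stability, since in WT rats the smallest p of the exact permutation test, 0.0571, cannot pass, and in P1.hMR rats a pair at the smallest p, 0.00794, was adjusted to 0.254. At an unadjusted p under 0.05 this test called 2 pairs in P1.hMR rats. Same-numbered rats showed no shared deviation at the median (r -0.0051 over 22 pairs), with 4 pairs over 0.1 and a highest r of 0.24. Whether they share more than a number cannot be told from this. With the replicate block 5 and 8 members were called, as without it. Des in WT rats missed the threshold with sample weights (adjusted p = 0.0613), and Mb in P1.hMR rats with no filter (0.0565). Calls were gained by Eno3 with quantile normalization (limma adjusted p = 0.043 for WT, 0.0474 for P1.hMR) and in WT rats with sample weights (0.0387), by Ckm in P1.hMR rats with quantile normalization (0.0387) or only the groups compared (0.0421), and by Xirp1 in P1.hMR rats under these 3 settings and median-of-ratios scaling (0.0338 to 0.0471). The study's reporting notes say that eyes of the same animal were pooled when both were analysed. The depth of each rat is unknown, which limits what can be said of members near 0 TPM.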
